A study of Mus musculus with 10 samples.

Results

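The 39 genes described here encode the contractile apparatus of skeletal muscle: myosin chains, actins, troponins, tropomyosin and titin, the proteins that assemble and anchor them, the acetylcholine receptor, the calcium release machinery and the transcription factor Mef2c. They are a named list of genes, each read from its probe set of highest mean, and each of the 39 had 1 probe set among those with a single gene symbol. They were drawn from 19938 genes measured on Affymetrix Mouse Gene ST 1.0 arrays in E12.5 mouse periotic tissue. This tissue comprises the otic vesicle, the source of the inner ear, together with its surrounding mesenchyme.

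The mutants were 5 T-Cre conditional Tbx1 knockout embryos and the controls 5 T-Cre conditional Tbx1 heterozygotes, so both groups carry T-Cre and the controls also lack an allele where the recombinase acted. T-Cre is active in the mesoderm, from which skeletal muscle and much of the periotic mesenchyme derive, while the otic epithelium keeps its Tbx1 alleles. Tissue from the left and right ear of an embryo was pooled, and each array holds 1 embryo. Tbx1, the targeted T-box transcription factor, had log2 signals of 8.40, 7.96, 7.58, 7.63 and 7.58 in mutants 1 to 5, against 8.89, 9.01, 8.84, 8.23 and 8.59 in controls 1 to 5 (probe set 10438347). Its log2 difference, mutant minus control, was -0.88 with a limma adjusted p of 0.451, and 4 of the 5 mutants lay below the lowest control. Arrays correlated at 0.984 to 0.996 with each other, and the arrays numbered 1 to 3 had higher Fos (8.82 to 9.08) than those numbered 4 and 5 (5.49 to 5.91) in both groups.

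In muscle, myosin heads pull on actin filaments when calcium, released through the ryanodine receptor, binds troponin and moves tropomyosin. Many of these proteins come in fast, slow and heart-type forms, and embryonic skeletal muscle uses developmental myosins together with heart-type forms such as Actc1 and Tnnt2 that adult skeletal muscle gives up. In the head, Tbx1 acts in the pharyngeal mesoderm that forms the muscles of the jaw, face and pharynx, and differentiating muscle cells turn on contractile genes under MyoD-family factors, MEF2 factors and serum response factor.

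All 39 genes read above a low background that most genes also exceeded. Of the 39, 38 had a lower mean in the mutants (50.9% of all genes did), and no difference passed the adjusted threshold (0.01% of all genes did). The background is the signal of Y-linked probe sets in arrays of female embryos, which reached 4.36, and each of the 39 read above it on all 10 arrays. Of 19938 genes, 17142 outside the list also had a mean above it. Reading above it is therefore weak evidence of expression, and Myl3, at 5.38 to 5.82, lay below the array medians of 6.19 to 6.27. The mean of the list differed by -0.16 on the log2 scale, mutant minus control, while embryos of the same genotype spread with an SD of 0.30 in mutants and 0.30 in controls. Most of the 39 genes were high together or low together from embryo to embryo, with mutant 4 and control 4 the highest and mutant 5 and control 3 the lowest. In a bulk sample, fewer muscle cells and less RNA per muscle cell cannot be told apart. Two-sided limma tests ran over all probe sets with 1 gene symbol, with Benjamini-Hochberg adjustment and a threshold of 0.05.

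The upstream sequence of 4 members is shown because they stand for the thin filament, the myosins and the receptor among genes that varied together, and because their windows hold binding motifs of muscle regulators. The sequences are the 250 bases before the transcription start, from RefSeq on GRCm38.p6, read 5′ to 3′ on the strand of the gene. Capitals mark a CArG box, the binding motif of serum response factor, an E-box (CANNTG), the motif of MyoD-family factors, or a MEF2 site. The windows are chr2:114052876-114053125 (minus strand) for Actc1, with a CArG box and no E-box, and chr8:123894776-123895025 (minus strand) for Acta1, with a CArG box and 2 E-boxes. They are chr11:67276874-67277123 (plus strand) for Myh8, with 1 MEF2 site and 1 E-box, and chr1:87205561-87205810 (plus strand) for Chrng, with 3 E-boxes.
Actc1: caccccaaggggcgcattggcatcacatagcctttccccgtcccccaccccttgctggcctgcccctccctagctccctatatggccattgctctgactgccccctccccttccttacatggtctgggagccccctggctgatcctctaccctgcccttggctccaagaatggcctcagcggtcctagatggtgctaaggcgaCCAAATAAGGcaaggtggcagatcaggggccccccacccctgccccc
Acta1: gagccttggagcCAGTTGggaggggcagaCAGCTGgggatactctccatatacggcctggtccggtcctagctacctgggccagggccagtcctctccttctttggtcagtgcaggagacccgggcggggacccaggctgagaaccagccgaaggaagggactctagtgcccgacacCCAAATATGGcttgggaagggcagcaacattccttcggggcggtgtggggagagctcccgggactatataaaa
Myh8: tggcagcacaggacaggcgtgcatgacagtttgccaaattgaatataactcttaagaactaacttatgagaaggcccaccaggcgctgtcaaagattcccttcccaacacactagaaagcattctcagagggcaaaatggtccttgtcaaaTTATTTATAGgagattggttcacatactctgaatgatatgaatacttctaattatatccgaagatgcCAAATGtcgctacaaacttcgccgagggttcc
Chrng: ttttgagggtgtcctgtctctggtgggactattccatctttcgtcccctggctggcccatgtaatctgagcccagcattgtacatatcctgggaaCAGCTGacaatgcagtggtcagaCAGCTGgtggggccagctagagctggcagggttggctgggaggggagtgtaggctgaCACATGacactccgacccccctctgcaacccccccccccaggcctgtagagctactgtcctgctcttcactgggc
Of the 39 members, 32 had a window in the RefSeq promoter table, and several had more than 1 start, giving 38 windows. Motifs were counted in the same 250 bases before each start, in members and in all windows. Cacng1, Chrnd, Myom2, Neb, Srl, Tnni2 and Tnnt3 are named only. An E-box was found in 31 of the 38 member windows (81.6%), against 66.2% of all 32851 windows of the table. These 31 windows belong to 27 of the 32 members. The windows of Tnni1 overlap each other, as do those of Myh7. The E-box spelling CAGCTG, a subset of the E-boxes chosen for counting after the windows were seen, was in 15 of 38 (39.5%), against 4271 of all 32851 windows. A CArG box was in 6 of 38 (15.8%, in Actc1, Acta1, Myl3, Myom1 and both windows of Ldb3, which overlap), against 1.47% of all windows. A MEF2 site was in 2 of 38 (5.26%, in Ttn and Myh8), against 2.92% of all windows. Both strands were searched, and a match of letters is a description of the window.

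**Figure D1:**
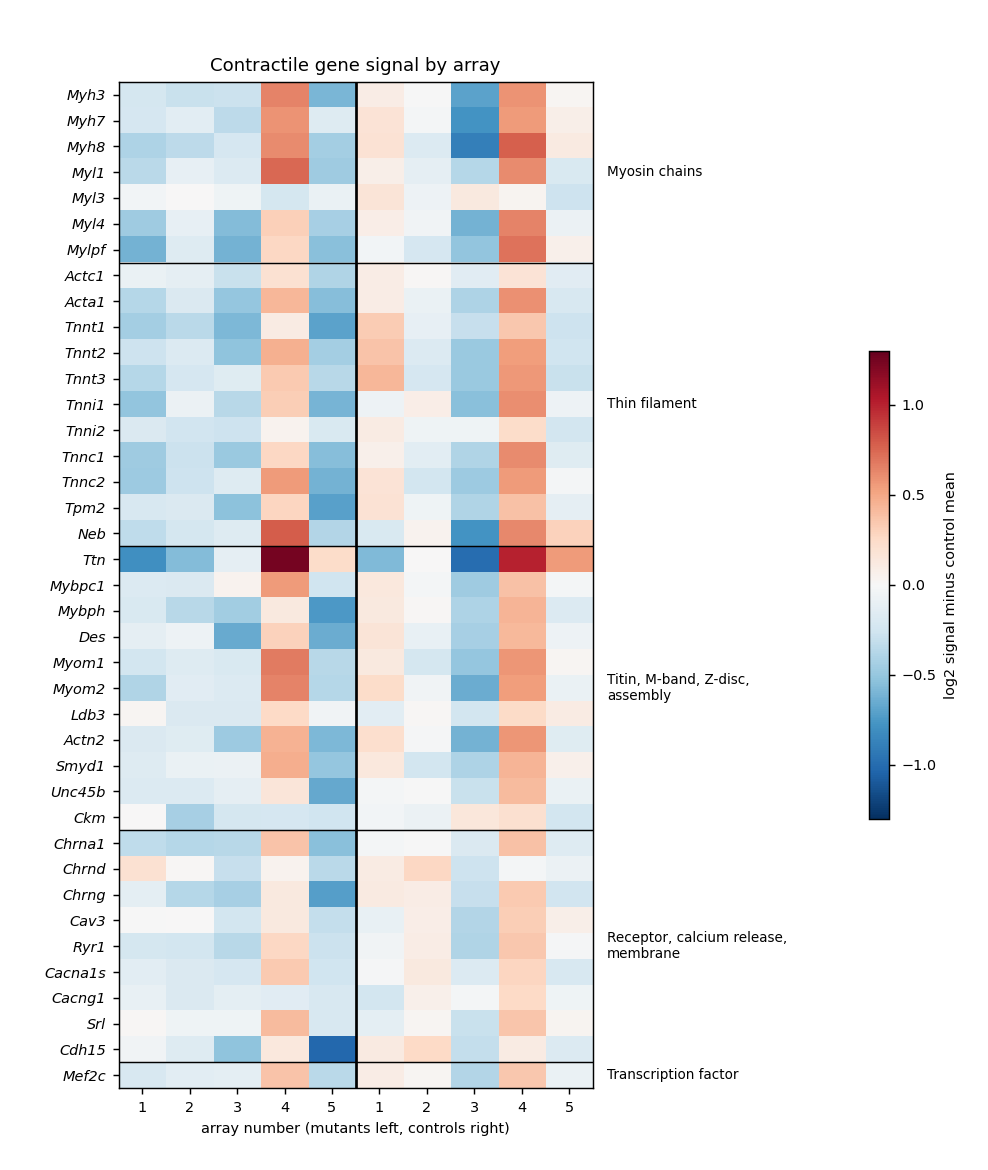
Log2 signal of the 39 contractile genes (rows, grouped by role) on each array (columns, mutants 1 to 5 on the left and controls 1 to 5 on the right), shown as the difference from the mean of the controls for that gene. The columns of mutant 4 and control 4 are mostly red and those of mutant 5 and control 3 mostly blue across the roles. Myl3, Ckm and Cacng1 are rows that do not follow, and Chrnd follows in the blue columns only.

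The myosin heavy chains, the motor subunits, differed more between embryos of a genotype than between genotypes. Myh3 had log2 signals of 9.75, 9.69, 9.70, 10.62 and 9.39 in mutants 1 to 5, against 10.07, 9.97, 9.28, 10.56 and 10.002 in controls 1 to 5. Myh3 is the embryonic heavy chain, and its 2 highest embryos were number 4 of each group. Its highest, mutant 4, lay 1.34 on the log2 scale above its lowest, control 3. Myh8 had log2 signals of 7.67, 7.73, 7.85, 8.69 and 7.62 in mutants 1 to 5, against 8.25, 7.89, 7.18, 8.84 and 8.19 in controls 1 to 5. Myh8, the perinatal heavy chain, spanned a 3.17-fold range over the 10 embryos. Myh7 had log2 signals of 7.71, 7.79, 7.59, 8.52 and 7.76 in mutants 1 to 5, against 8.11, 7.91, 7.16, 8.48 and 8.004 in controls 1 to 5. Myh7, the slow heavy chain that the heart also uses, had its highest signal in mutant 4 and its lowest in control 3. For these 3 genes the groups overlapped fully, in that no mutant lay below the lowest control, and the log2 differences were -0.15 (-0.65 to 0.36), -0.16 (-0.74 to 0.42) and -0.06 (-0.53 to 0.42), with 95% intervals in brackets. The differences of Myh8 and Myh7 turned positive without control 4, at 0.03 and 0.08.

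Among the myosin light chains, which bind the neck of the heavy chain, the heart-type form found in embryonic muscle and the fast regulatory chain were lowest relative to the controls. Myl4 had log2 signals of 9.34, 9.70, 9.24, 10.12 and 9.37 in mutants 1 to 5, against 9.90, 9.76, 9.19, 10.46 and 9.73 in controls 1 to 5. Myl4 is the atrial and embryonic essential light chain. Its group means were 9.56 ± 0.36 in mutants and 9.81 ± 0.45 in controls (SD, n = 5 each), a difference of -0.25 with an adjusted p of 0.762 by limma. Mylpf, the fast regulatory light chain, averaged 8.31 ± 0.38 in mutants and 8.64 ± 0.45 in controls (SD, n = 5 each), and 3 of the 5 mutants lay below the lowest control. Myl1, the fast essential light chain, differed by -0.07. Myl3, the slow and ventricular essential light chain, read between 5.38 and 5.82 on all arrays and differed by -0.08.

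The thin filament genes had the lowest difference of the roles, with a mean of -0.21 over 11 genes (nebulin among them), all of them lower in the mutants and none past the threshold. Actc1 had log2 signals of 12.93, 12.90, 12.72, 13.22 and 12.62 in mutants 1 to 5, against 13.12, 13.03, 12.87, 13.20 and 12.87 in controls 1 to 5. Actc1 encodes cardiac alpha-actin, which embryonic skeletal muscle makes in quantity, and its 10 values spanned only 0.59 on the log2 scale. Acta1 had log2 signals of 10.16, 10.34, 10.02, 10.96 and 9.97 in mutants 1 to 5, against 10.63, 10.45, 10.13, 11.13 and 10.32 in controls 1 to 5. Acta1, skeletal alpha-actin, read lower in each mutant than in the control of its number, and 2 of the 5 mutants lay below the lowest control. The differences were -0.14 ± 0.10 (SE) for Actc1 and -0.24 ± 0.20 for Acta1. The coding sequences of the actins are close to each other, and whether their probe sets share targets was not tested.

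Tnnt1, the slow skeletal form of the tropomyosin-binding troponin subunit, had the lowest difference and the smallest p of the 39 genes. Tnnt1 had log2 signals of 8.94, 9.03, 8.80, 9.49 and 8.69 in mutants 1 to 5, against 9.72, 9.28, 9.08, 9.73 and 9.11 in controls 1 to 5. Mutants 1, 2, 3 and 5 read below every control, and mutant 4 lay inside the control range. The difference was -0.39 (95% interval -0.74 to -0.04), or 76.1% of the control signal, with an unadjusted p of 0.0305 and an adjusted p of 0.589 by limma. It was -0.44 among the arrays numbered 1 to 3 and -0.33 among those numbered 4 and 5.

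The other troponins differed less. Tnnt2 had log2 signals of 9.08, 9.17, 8.84, 9.82 and 8.91 in mutants 1 to 5, against 9.73, 9.18, 8.87, 9.90 and 9.10 in controls 1 to 5. Tnnt2, the heart form that embryonic skeletal muscle also expresses, read lower in each mutant than in the control of its number, although the groups overlapped in all but 1 mutant. Tnni1 had log2 signals of 7.74, 8.17, 7.89, 8.57 and 7.64 in mutants 1 to 5, against 8.18, 8.33, 7.70, 8.85 and 8.18 in controls 1 to 5. Tnni2 had log2 signals of 7.29, 7.22, 7.21, 7.51 and 7.27 in mutants 1 to 5, against 7.58, 7.42, 7.42, 7.71 and 7.23 in controls 1 to 5. Tnni1 and Tnni2 are the slow and fast forms of the inhibitory subunit, and their differences were -0.25 and -0.17. Tnni2 varied little between embryos, within 0.50 on the log2 scale. The calcium-binding subunits Tnnc1, the slow and heart form, and Tnnc2, the fast form, differed by -0.30 and -0.19, and Tnnt3, the fast tropomyosin-binding form, by -0.15. Tpm2, the beta-tropomyosin, differed by -0.27.

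Fast, slow and heart-type forms all had lower means in the mutants, as 38 of the 39 members did, so direction does not tell the classes apart. The 5 fast forms (Myl1, Mylpf, Tnnt3, Tnni2 and Tnnc2) had differences of -0.33 to -0.07 with a median of -0.17. The heart forms Actc1, Tnnt2 and Myl4 had -0.25 to -0.14, the slow forms Tnnt1 and Tnni1 had -0.39 and -0.25, and the forms shared by slow muscle and heart (Myh7, Myl3 and Tnnc1) had -0.30 to -0.06. The developmental forms Myh3 and Myh8 had -0.15 and -0.16, and the skeletal actin Acta1 had -0.24. These classes were set with the values known and no difference between them was tested.

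Titin and nebulin, the giant proteins of the sarcomere, were among the 4 members of largest spread between embryos, and their group means were close. Ttn had log2 signals of 7.63, 7.87, 8.32, 9.68 and 8.67 in mutants 1 to 5, against 7.86, 8.44, 7.45, 9.43 and 8.99 in controls 1 to 5. Ttn encodes titin, which spans from Z-disc to M-band, and its highest embryo read 4.68-fold above its lowest. Ttn was the 1 member whose 4 arrays numbered 4 and 5 all read above the 6 numbered 1 to 3, the same division of the arrays as for Fos, and the part of that division in the signal of Ttn was not tested. Neb had log2 signals of 8.04, 8.14, 8.20, 9.15 and 7.98 in mutants 1 to 5, against 8.17, 8.41, 7.59, 8.99 and 8.67 in controls 1 to 5. Neb encodes nebulin, the ruler of the thin filament. The differences were -0.0013 ± 0.40 (SE) for Ttn and -0.06 ± 0.26 for Neb. The difference of Ttn was -0.31 without mutant 4 and 0.25 without control 4, and that of Neb -0.28 and 0.09.

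Mybph had log2 signals of 8.80, 8.64, 8.55, 9.13 and 8.26 in mutants 1 to 5, against 9.13, 9.02, 8.60, 9.44 and 8.82 in controls 1 to 5. Mybph is a myosin-binding protein, with each mutant below the control of its number and a difference of -0.32 and an adjusted p of 0.647. Its relative Mybpc1, the slow myosin-binding protein C, differed by -0.01. The M-band proteins Myom1 and Myom2 differed by -0.06 and -0.09, and the Z-disc proteins Ldb3 and Actn2 (Actn2 crosslinks actin) by -0.03 and -0.19. Des, the muscle intermediate filament, differed by -0.24. Smyd1 and Unc45b, which help myosin fold and assemble into filaments, differed by -0.07 and -0.19.

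Ckm had log2 signals of 6.41, 5.97, 6.18, 6.19 and 6.14 in mutants 1 to 5, against 6.36, 6.33, 6.55, 6.61 and 6.17 in controls 1 to 5. Ckm is muscle creatine kinase, which regenerates ATP for contraction. It was the only member besides Tnnt1 with an unadjusted p under 0.05 (0.0452, adjusted p 0.602 by limma), at a difference of -0.23 ± 0.10 (SE), and it did not follow the other members from embryo to embryo.

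The genes of the neuromuscular junction and of calcium release had a mean difference of -0.16 over 9 genes, 8 of them lower. Chrng had log2 signals of 7.89, 7.65, 7.59, 8.15 and 7.30 in mutants 1 to 5, against 8.14, 8.12, 7.72, 8.36 and 7.77 in controls 1 to 5. Chrng, the fetal gamma subunit of the acetylcholine receptor, read lower in each mutant than in the control of its number, with 3 of the 5 mutants below the lowest control. Its difference was -0.31 ± 0.16 (SE), with an adjusted p of 0.647. Chrna1, the ligand-binding alpha subunit, differed by -0.24, and 4 of the 5 mutants lay below the lowest control. Chrnd, the delta subunit and the neighbour of Chrng in the gene order of GRCm38.p6, differed by -0.08.

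Cdh15, M-cadherin, an adhesion molecule of myoblasts, had a wide spread, at 7.31 to 8.46 in mutants and 8.02 to 8.59 in controls. Mutant 5 was its lowest embryo, and the difference was -0.32 with an adjusted p of 0.683. The calcium channel subunits Cacna1s and Cacng1, the voltage sensor of the T-tubule and its partner, differed by -0.09 and -0.15, and Ryr1, the calcium release channel, by -0.17. Cav3, the muscle caveolin, differed by -0.09. Srl, sarcalumenin, a calcium-binding protein of the sarcoplasmic reticulum, was the 1 member with a higher mean in the mutants, at 0.02.

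Mef2c had log2 signals of 8.87, 8.94, 8.95, 9.45 and 8.73 in mutants 1 to 5, against 9.18, 9.10, 8.70, 9.43 and 8.99 in controls 1 to 5. Mef2c is a transcription factor that acts with the MyoD family on contractile genes. Its embryos ranked much as the list mean did, with number 4 highest in each group, and its difference was -0.09 with an adjusted p of 0.882. Mef2c is also expressed outside muscle, in endothelium and neural crest.

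**Figure D2:**
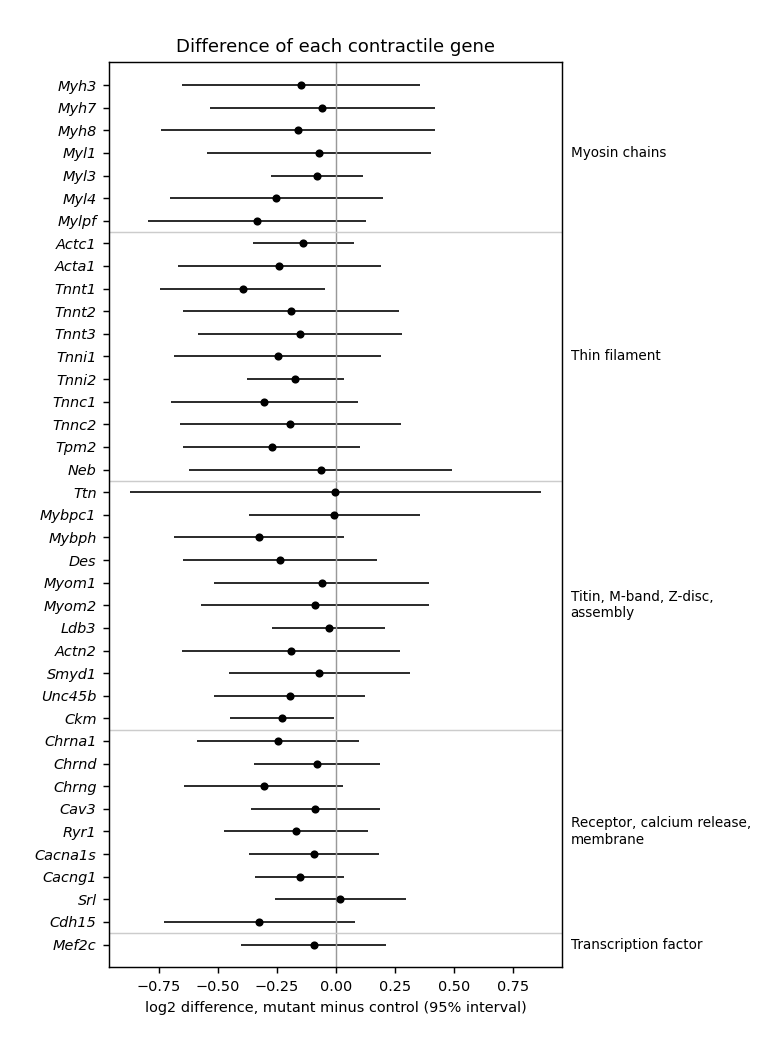
Log2 difference, mutant minus control, of each contractile gene (points) with its 95% interval from limma (bars), grouped by role. Of the 39 points 38 lie below 0, and the intervals of Tnnt1 and Ckm alone do not reach 0.

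The count of members in each direction was read against all genes. Of the 39 members, 38 were lower in the mutants, where 50.9% of the 19938 genes were lower, and the median difference was -0.16 for the members, against -0.00210 for all genes. Because the members vary together, the 38 are not independent observations of a difference. No member passed the adjusted threshold in either direction, where 0.01% of all genes passed, all higher in the mutants, and the smallest adjusted p of a member was 0.589. At an unadjusted p under 0.05, 2 members were lower and 0 higher, where 3.11% of all genes were lower and 4.7% higher. The groups overlapped for each of the 39 members, where 0.552% of all genes were lower and 1.27% higher without overlap. For 33 of the 39 the difference was smaller than the SD between embryos of a genotype.

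With the replicate number as a block, 16 members were lower at an unadjusted p under 0.05 and 0 were higher, where 3.72% of all genes were lower and 6.02% higher in the same fit. The same-number fit left the differences as they were and gave a smaller standard error for 37 of the 39 members, all but Myl3 and Cacng1, such as 0.08 for Tnnt1 in place of 0.16. The members of smallest p in it were Tnnt1 (0.00092), Mybph (0.00187), Tnnc1 (0.0019) and Chrng (0.00264), unadjusted. No member passed the adjusted threshold, with adjusted p-values by limma of 0.317 and above, and 0.01% of all genes did.

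**Figure D3:**
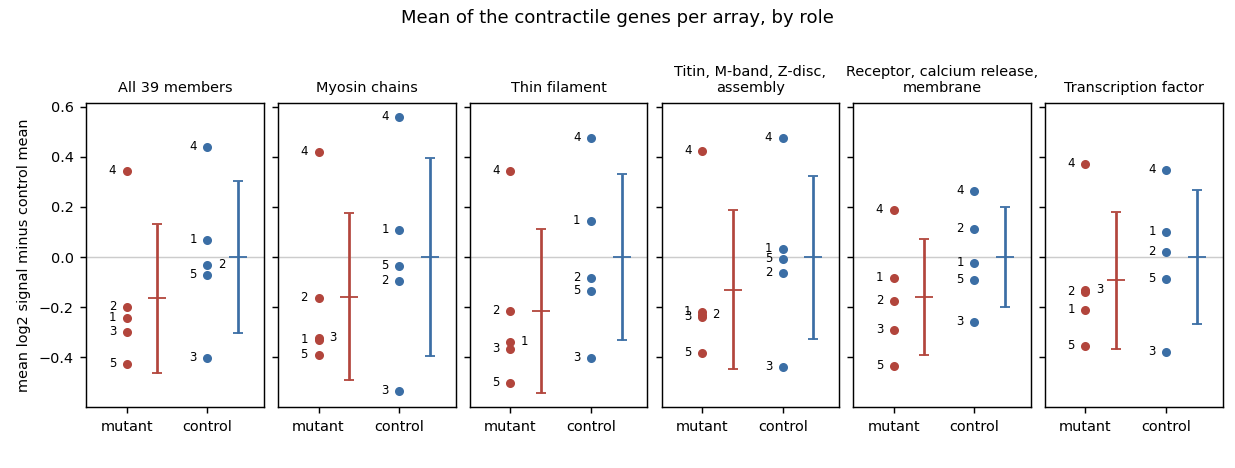
Mean log2 signal of the contractile genes on each array, as the difference from the mean of the controls, for all 39 members and for each role. Points are embryos with their numbers, and the bar beside them is the mean ± SD (n = 5). Number 4 is highest in both groups in each panel, mutant 5 and control 3 are lowest, and the groups overlap.

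The mean of the 39 genes on each array, after each gene was set to its control mean, was -0.24, -0.20, -0.30, 0.34 and -0.43 in mutants 1 to 5, against 0.07, -0.03, -0.40, 0.44 and -0.07 in controls 1 to 5. Mutant 4 lay above every control but control 4, and control 3 lay below every mutant but mutant 5. The highest embryo exceeded the lowest by 0.87 on the log2 scale, or 1.82-fold, and the group means differed by -0.16. No p is given for this mean, because the genes were chosen with results of these data known. The difference was -0.05 without control 4 and -0.29 without mutant 4, and 28 and 39 of the members were then lower. Without both embryos numbered 4 it was -0.18 with 38 lower. Among the arrays numbered 1 to 3 it was -0.12 with 33 of 39 members lower, and among those numbered 4 and 5 -0.23 with 38 lower. By same-number pairs, mutant minus control, it was -0.31, -0.17, 0.10, -0.09 and -0.36 for numbers 1 to 5.

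Contractile genes varied more between embryos than most genes did. The median SD within a genotype was 0.34 for the 39 members, against 0.13 for genes above background, and 3.46% of genes above background exceeded 0.34. In 31 of the 39 the 2 highest arrays were mutant 4 and control 4. Control 3 was the lowest control for 33 of the 39 and mutant 5 the lowest mutant for 26.

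As deviations from the group means over the 10 arrays, each member was set against the mean of the other 38. Pearson's r exceeded 0.8 for 31 of 39, with a median of 0.94, and the best followers were Myh3 (0.98), Mef2c (0.98), Actn2 (0.98), Acta1 (0.98) and Tnnc1 (0.98). Spearman's rho was 0.87, 0.93, 0.94, 0.98 and 0.98 for these 5. The members that followed least were Myl3 (-0.27), Ckm (0.11), Cacng1 (0.36) and Chrnd (0.44). Without the embryos numbered 4 the median r was 0.78 and 16 of 39 exceeded 0.8, with Myh3 at 0.96, Mef2c at 0.96 and Actn2 at 0.97. Ttn was then at 0.07, Tnni2 at 0.15 and Ldb3 at 0.32, while Chrnd was at 0.73. Among 17142 genes above background outside the list, the median r with the list mean was -0.04, and 249 of them (1.45%) exceeded 0.8. The points share their arrays and normalization, and the values of r are given as a description.

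**Figure D4:**
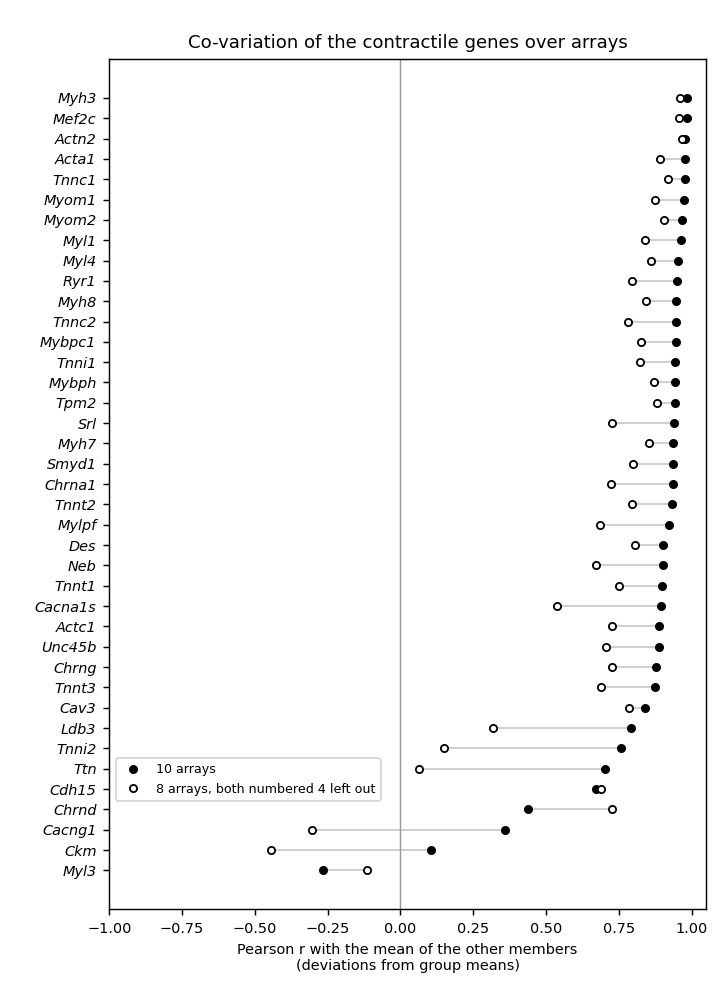
Pearson's r of each contractile gene with the mean of the other 38, as deviations from the group means over 10 arrays (filled) and over 8 arrays without mutant 4 and control 4 (open). The filled points of 31 genes lie above 0.8, and Myl3, Ckm, Cacng1 and Chrnd lie lowest.

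Outside the gene lists, the genes whose signal followed the contractile mean most closely were Apobec2 (r = 0.97), a muscle-expressed member of the deaminase family, Pygm (0.97), muscle glycogen phosphorylase, Adamtsl1 (0.96), Col6a2 (0.96), a collagen of the muscle matrix, and Gatm (0.95), an enzyme of creatine synthesis. Next were Flnc (0.95), the muscle filamin, Sdk2 (0.95), Col6a3 (0.94), Klhl31 (0.94), a kelch protein of muscle, and Ghr (0.94), the growth hormone receptor. These are Pearson's r over the 10 arrays as deviations from the group means, among genes above background. Without the embryos numbered 4, r lay between 0.81 (Gatm) and 0.996 (Ghr). Their log2 differences, mutant minus control, ran from -0.28 (Flnc) to 0.06 (Ghr), with none past the threshold.

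Other genes of striated muscle outside the 39 had a median difference nearer 0. Of 74 measured, 55 were lower in the mutants, 0 passed the adjusted threshold in either direction, and the median difference was -0.07. At an unadjusted p under 0.05, 2 were lower and 1 higher, where 3.11% of all genes were lower and 4.7% higher. The 2 of smallest p were Stac3, which couples the voltage sensor to calcium release (-0.26, adjusted p 0.589), and Tpm3, a tropomyosin also made outside muscle (0.11, adjusted p 0.602). The mean of the 74 correlated with the contractile mean at 0.97, and at 0.91 without the embryos numbered 4. The adult fast heavy chains read low in both groups: Myh1 at 5.23 to 5.67 in mutants and 5.37 to 6.06 in controls, Myh2 at 5.42 to 5.57 in mutants and 5.41 to 5.68 in controls, and Myh4 at 4.71 to 4.92 in mutants and 4.61 to 4.95 in controls. Xirp2, also named after its values were seen, was at background on all 10 arrays. Chrne, the adult receptor subunit that takes the place of Chrng after birth, read 5.24 to 5.50 in mutants and 5.23 to 5.66 in controls. These adult genes were picked after their values were seen, to set beside Myh3, Myh8 and Chrng, and levels of different probe sets are not compared.

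The mean of the regulators of muscle differentiation correlated with the contractile mean at 0.92, and at 0.93 without the embryos numbered 4. Single regulators followed to unequal extents, with r above 0.8 for 2 of 14, Myog and Myod1, and under 0.4 for 7 of 14. The mean of 14 myogenic regulators was -0.04, -0.04, -0.15, 0.07 and -0.17 in mutants 1 to 5, against 0.05, 0.02, -0.15, 0.10 and -0.02 in controls 1 to 5, with number 4 highest in each group. Its difference was -0.06 and the median difference of its genes -0.11, with 9 of 14 lower and 0 past the threshold. At an unadjusted p under 0.05, 3 of the 14 were lower and 1 higher, where 3.11% of all genes were lower and 4.7% higher. The 2 of smallest p were Msc, a basic helix-loop-helix factor of branchial muscle (-0.42, adjusted p 0.569), and Pax3, a marker of muscle progenitors that neural tube and neural crest also express (0.70, adjusted p 0.572). Myog, Myod1 and Pax7 are named after their values were seen. Myog spanned 1.13 on the log2 scale over the 10 arrays, where the single contractile genes Myh3 and Actc1 spanned 1.34 and 0.59. Myog and Myod1 correlated with the contractile mean at 0.87 and 0.83 over the 10 arrays, and Pax7 at 0.33. The contractile mean minus the regulator mean differed by -0.10 between the groups, from -0.01 without control 4 to -0.19 without mutant 4. Without Pax3, left out after its value was seen, the mean difference of the other 13 regulators was -0.12 and the contrast -0.04.

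Several genes of the list are shared with heart, and markers of heart muscle were read beside them. Of 14 heart markers, 13 read above background on all arrays, Pln on 4 of 10, and none was at background on every array. The summed log2 signal of the list was 80.8 to 90.2 in mutants and 82.0 to 84.1 in controls. Nppa had log2 signals of 5.16, 7.70, 5.46, 5.19 and 6.74 in mutants 1 to 5, against 5.35, 5.22, 5.33, 5.25 and 5.52 in controls 1 to 5. Nppa, atrial natriuretic peptide, was chosen after its values were seen, and mutants 2 and 5 stood above all other embryos. Myl7 had log2 signals of 5.55, 7.03, 5.52, 5.49 and 6.93 in mutants 1 to 5, against 5.59, 5.53, 5.63, 5.45 and 5.65 in controls 1 to 5. Myl7, the atrial regulatory light chain, was high in the same 2 embryos. Myh6 and Tbx20 were also highest in these 2, and the remaining heart markers were not. Myl2, Nkx2-5 and Mybpc3, named after their values were seen, read within the control range in both. Of the 6 isoforms shared with heart, mutant 2 was the highest mutant for Myl3, next below mutant 4 for Tnnt2, Myl4, Myh7 and Tnnc1, and below mutants 4 and 1 for Actc1. That rank was not particular to them. Mutant 2 was also next below mutant 4 for the contractile mean (-0.20) and for Acta1, Tnnt1, Tnni1, Myl1 and Mylpf. It ranked lower for Myh3, Myh8, Tnnt3, Tnni2 and Tnnc2. Mutant 5 was the lowest mutant for Actc1 and Tnnc1 and not for the other 4. The heart list correlated with the contractile mean at -0.25 over the 10 arrays (Spearman's rho -0.08), and at 0.00031 without the embryos numbered 4. By smallest p the heart list gave Myl7 (0.53, adjusted p 0.663 by limma) and Nppb, a natriuretic peptide (-0.16, adjusted p 0.67). The part of heart tissue in the contractile signal was not tested.

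**Figure D5:**
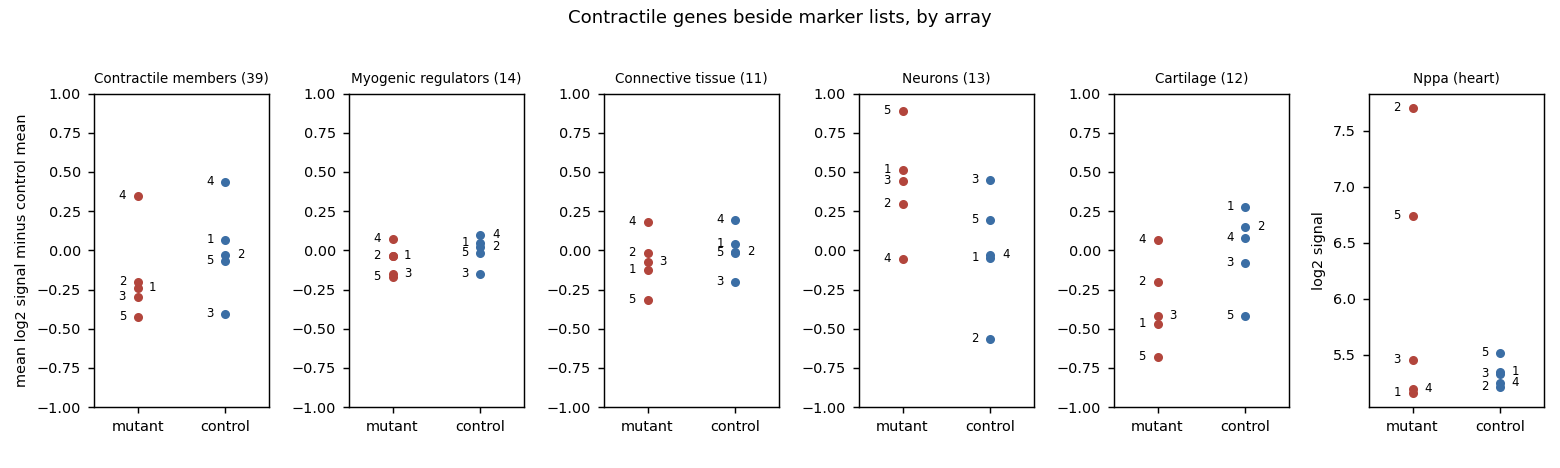
Mean log2 signal of the contractile genes, myogenic regulators and marker lists on each array, as the difference from the mean of the controls, and the log2 signal of Nppa. Points are embryos with their numbers, mutants on the left. Connective tissue is highest in both embryos numbered 4 and lowest in mutant 5 and control 3, neuron markers are highest in mutant 5 and control 3, and Nppa is high in mutants 2 and 5.

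Marker lists of other tissues followed the contractile mean between embryos to unequal extents. The connective tissue list (11 of 11 above background on all arrays, summed signal 121.8 to 127.3 in mutants and 123.0 to 127.4 in controls) correlated with the contractile mean at 0.94, and at 0.88 without the embryos numbered 4. The neuron list (13 of 13, 113.8 to 126.2 in mutants and 107.3 to 120.4 in controls) ran the other way at -0.66, and at -0.72 without them. The cartilage list (12 of 12, 98.2 to 107.1 in mutants and 101.3 to 109.7 in controls) correlated at 0.64, and at 0.49 without them. The smooth muscle list (9 of 9, 65.2 to 68.6 in mutants and 65.8 to 67.6 in controls) stood at 0.50, blood vessel endothelium (8 of 8, 67.7 to 71.8 in mutants and 69.0 to 70.8 in controls) at 0.29, the otic epithelium (9 of 9, 68.1 to 72.2 in mutants and 70.3 to 71.1 in controls) at 0.08 and red blood cells (6 of 6, 56.8 to 60.4 in mutants and 56.8 to 65.1 in controls) at -0.13. Without the embryos numbered 4, smooth muscle stood at 0.67, endothelium at 0.54, the otic epithelium at -0.30 and red blood cells at -0.39. Smooth muscle and endothelium then stood above cartilage. No marker of these lists was at background on every array, and the part of other tissues in the contractile signal was not tested.

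In these lists 0 genes passed the adjusted threshold by limma, and all 13 neuron markers had a higher mean and all 12 cartilage and all 6 red blood cell markers a lower mean in the mutants. At an unadjusted p under 0.05, 5 of 13 neuron markers were higher, 4 of 12 cartilage markers lower, 2 of 8 endothelial markers higher, and 1 connective tissue and 1 otic epithelium marker lower. Over all genes, 3.11% were lower and 4.7% higher at that p, and markers of a tissue are not independent of each other. The mean log2 differences, mutant minus control, were -0.07 for connective tissue, 0.42 for neurons, -0.34 for cartilage, -0.02 for smooth muscle, 0.15 for heart, -0.20 for red blood cells, -0.06 for the otic epithelium and 0.05 for endothelium. By smallest p, the genes named from them are Col5a1 (-0.29) and Pdgfra (-0.15) for connective tissue, Neurod4 (0.74) and Elavl4 (0.56) for neurons, Col2a1 (-0.53) and Col9a3 (-0.48) for cartilage, and Mylk (-0.13) and Myh11 (-0.18) for smooth muscle. For the otic epithelium they are Dlx5 (-0.44) and Oc90 (-0.49), for endothelium Kdr (0.19) and Pecam1 (0.19), and for red blood cells Hba-x (-0.26) and Alas2 (-0.30).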

How the data were processed

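Expression was measured in periotic tissue of 5 mutant and 5 control embryos, 1 array each, from 300 ng of total RNA. The authors' deposited log2 values came from RMA, and the submitters' processing notes also name Affymetrix Expression Console 1.1. That they are log2 is read from the values (array medians 6.19 to 6.27). No source used here gives the probe file version, and precision is limited by the number of arrays. How far probe sets of related genes (the myosin heavy chains, the actins) share targets could not be checked, since probe sequences were not used here.

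Of 35557 probe sets, the platform annotation gave 21789 with 1 gene symbol, 1621 with several and 12147 with none listed. Gene ids matched 21698 of the 21789 to RefSeq GRCm38.p6, which served only for names, gene order and promoter sequences. The test was limma 3.58.1 under R 4.3.3, using lmFit and then eBayes with a trend, with p-values adjusted over the 21789. For each of 19938 genes the probe set of highest mean was taken. The fit was also run on simulated data with independent noise for each probe set. The members vary together, so that run cannot vouch for counts over them. Embryos were called female by Xist.

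The members and lists were chosen with earlier results of these data known. Full values are given for the 4 members of smallest p, the 4 of largest SD (Ttn, Myh8, Neb and Myh3) and 10 isoform members fixed by name, and the other lists give their 2 genes of smallest p. The 10 most alike genes were ranked by Pearson's r, without predicted genes. Over all probe sets, the deviations of same-number embryos correlated at 0.12 to 0.25 in the 5 pairs, inside the range between other numbers (-0.39 to 0.38). These values do not settle whether the numbers mark pairs, and what a number stands for is not labelled. The main fit therefore used no block, and pairing by number was an alternative. In 2 of 5 mutants the best correlated control had their own number. Isoform classes, the CAGCTG count and leaving out both embryos numbered 4 were chosen after seeing the data. The alternatives changed the variance model, array weights, pairing, array numbers, normalization, the filter on dim probe sets, the probe set rule and the arrays included.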

Additional observations from a re-analysis of the deposited data

Results flagged for a closer look

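Among 82 groups of 5 values, those of the 39 members, of their mean and of their mean minus the regulator mean in mutants and in controls, 10 held an embryo whose gap to the nearest of the others exceeded Dixon's critical value of 0.71 as a share of the range. Chance flags about 1 in 20 groups, and members that vary together are not independent groups. In each of the 10 the embryo was mutant 4, the highest of the mutants. The genes, with the log2 signal of mutant 4, were Myh7 (8.52), Myh8 (8.69), Tnni2 (7.51), Neb (9.15), Myom1 (8.13), Myom2 (7.58), Chrna1 (7.99), Ryr1 (7.30) and Cacna1s (7.02). The contractile mean minus the regulator mean was also far from the other mutants in mutant 4, at 0.27. No group of control values was marked.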

How the results depend on the processing

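No member passed the adjusted threshold under the 22 alternatives, and the contractile mean stayed lower in the mutants in each, at -0.29 to -0.05 with 1 embryo left out and -0.23 to -0.12 otherwise. The number of members lower was 28 to 39 with 1 embryo left out and 33 to 39 otherwise. The contractile mean minus the regulator mean ran from -0.19 to -0.01, and was -0.04 without Pax3, an alternative chosen after seeing the data. At an unadjusted p under 0.05 the 2 members became 16 with the replicate block, 0 to 12 with 1 embryo left out (12 without mutant 4, and 0 without mutant 3, mutant 5 or control 4), 9 without both embryos numbered 4, a choice made after seeing the data, 4 within the arrays numbered 1 to 3, 0 within those numbered 4 and 5, and 4 after a further quantile normalization. The share of all genes at that p is given here only for the main fit and the replicate block, so the other counts have no background beside them. The replicate block changed no other call and left the genes past the threshold over all genes at 2. These numbered 1 within the arrays numbered 1 to 3 and 0 within those numbered 4 and 5, where fewer arrays were tested, and 1 without dim probe sets, where fewer probe sets were tested. The difference changed sign in 6 of the 22 for Ttn, 5 for Neb, 2 for Myh7 and 1 for Myh8, none of them called in any. Averaging probe sets could not alter the members, which have 1 each. With 5 embryos a group, a difference of the size of the contractile mean lies inside the spread between embryos.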
